A study of Arabidopsis thaliana with 6 samples.

Results

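The genes described here are 33 nuclear genes for subunits of the photosynthetic electron transport chain of Arabidopsis thaliana: 12 of photosystem I (PSA), 11 of photosystem II (PSB), 7 for electron carriers and 3 for the chloroplast ATP synthase. They were picked by locus identifier from 38150 genes in each library, and all 33 were found. The rule was on their function and set no threshold on measured values, but the list was chosen with earlier results of these data known. Shares set beside those of all genes are therefore descriptions and not independent support. The libraries came from 9-day-old seedlings, labelled whole plants, of the nid1 knockout mutant (3 libraries) and of wild-type (WT) accession Col-0 (3 libraries). All plants had been grown with 20 mM nitrate, moved to medium without nitrate and then supplied with 0.05 mM nitrate for 6 h. Low nitrate is thus common to both genotypes, as are the recorded 16 h of light and 8 h of dark, 23 °C and 60% humidity. The values are FPKM, fragment numbers normalised for the length of the transcript and the size of the library, as the authors deposited them. The labels name neither the locus that nid1 removes nor the number of mutant lines, so the loss of its transcript was not checked. Whether replicates were grown as separate cultures is not stated, so the p-values reflect only how these libraries spread, part of which may be technical.

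In the thylakoid membrane photosystem II takes electrons from water, and its lumenal PSBO, PSBP and PSBQ proteins hold the oxygen-evolving cluster in place. The electrons pass through the cytochrome b6f complex, which contains the Rieske protein PETC, to plastocyanin, and then to photosystem I. Photosystem I reduces ferredoxin, and ferredoxin-NADP reductase (FNR) makes NADPH from it, while the proton gradient drives the ATP synthase. The reaction centre proteins of both photosystems are encoded in the chloroplast genome and the subunits described here in the nucleus. Ferredoxin also supplies electrons to nitrite reductase and glutamate synthase, which links this chain to nitrate assimilation.

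Most of these transcripts had higher means in nid1 seedlings than in WT, by about the same factor in both photosystems, but none passed the test across the whole table. In bulk seedlings more green cells and more of these transcripts per green cell cannot be told apart. The mean in nid1 was higher for 32 of the 33 genes, and FD1, a leaf ferredoxin, was the exception. The median log2 fold change of FPKM + 1, nid1 over WT, was 1.06 over the 33 genes and 0.000218 over all 20533 genes tested. It was 1.08 for photosystem I, 1.12 for photosystem II, 0.59 for the electron carriers and 0.68 for the ATP synthase. The medians of the complexes are descriptions, and their differences were not tested. Fold changes on this scale understate the change of low genes. The limma test, with Benjamini-Hochberg adjustment over all genes tested and a threshold of 0.05, called 0 of the 33, where it called 0.0877% of all genes tested (18 genes), 0.0633% higher in nid1. At an unadjusted p under 0.05 there were 30 of the 33, all higher in nid1, against 3.65% of all genes tested higher in nid1 and 6.21% in either direction. In 26 of the 33 every nid1 value lay above every WT value, which held for 5.50% of all genes tested. A log2 fold change above 0.5 was found for 29 of the 33 and for 2.55% of all genes tested. The adjusted p-values ran between 0.144 for PSAG and 1.00 for FD1.

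**Figure D1:**
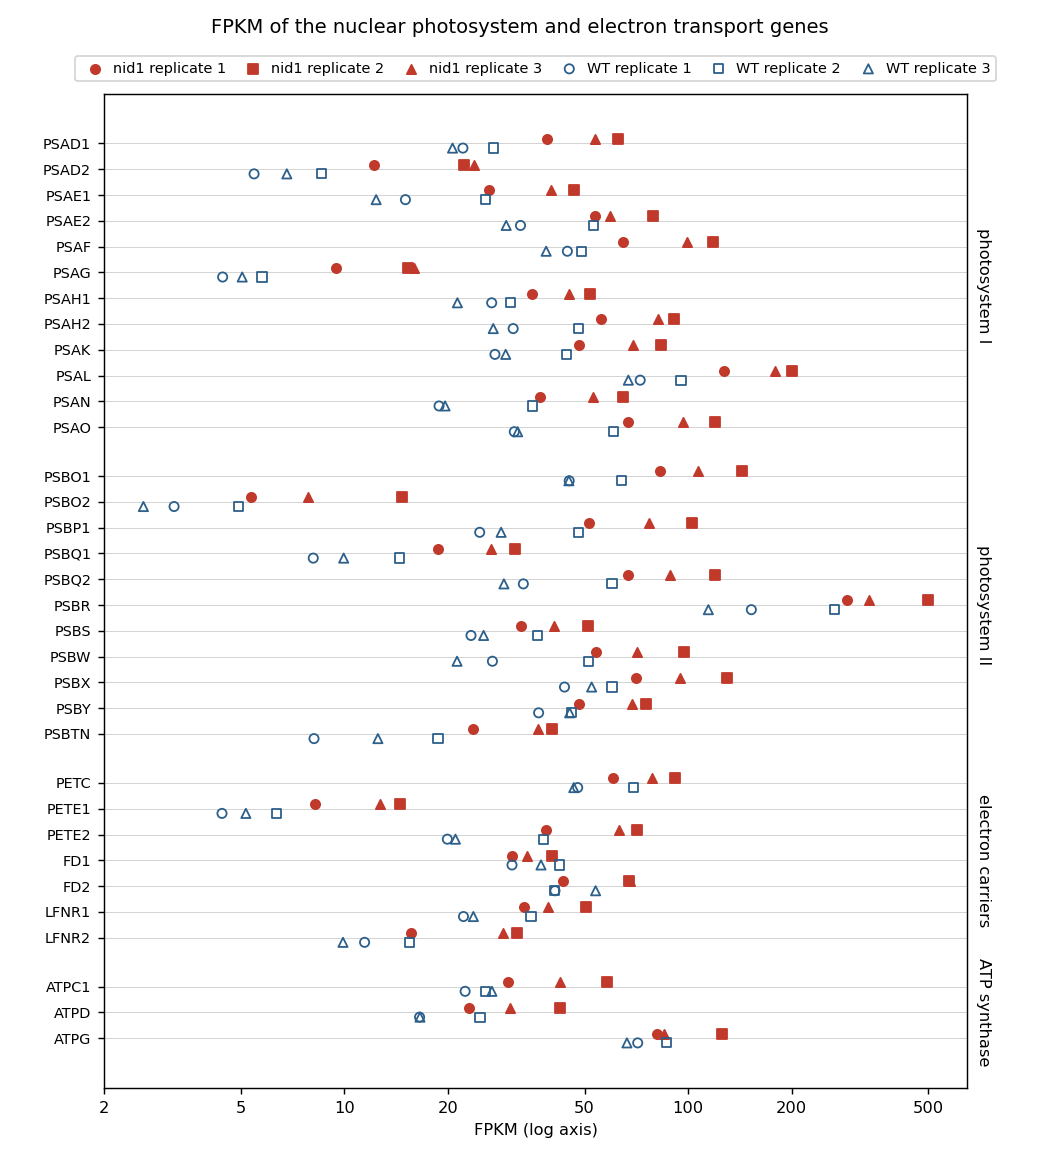
FPKM of the 33 genes (rows, grouped by complex) on a log axis, with filled symbols for the 3 nid1 libraries and open symbols for the 3 WT libraries. WT replicate 2 is the highest WT value for 31 genes and nid1 replicate 1 the lowest nid1 value for all 33.

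The 33 genes varied together between libraries of the same genotype. Of the nid1 libraries, replicate 1 was the lowest for 33 of 33 genes, where it was the lowest for 46.1% of all genes tested, and replicate 2 was the highest for 30 of 33, against 50.9%. Of the WT libraries, replicate 2 was the highest for 31 of 33, against 51.9% of all genes tested. Summed over the 33 genes, FPKM came to 1684, 2854 and 2253 in nid1 replicates 1, 2 and 3, against 1026, 1538 and 1004 in WT replicates 1, 2 and 3. The lowest nid1 sum was thus close to the highest WT sum. These sums were 0.290% of all FPKM in nid1 libraries and 0.144% in WT libraries on average. WT replicate 2 was also the outlying library in a principal component analysis of all genes tested (first component, 38.3% of variance), and its FPKM sum was 964273, against 730062 to 804310 in the other 5 libraries. Without WT replicate 2 the median log2 fold change of the 33 genes was 1.21, and without nid1 replicate 1 it was 1.28. Without nid1 replicate 1 limma called 2 of the 33, PSAG and PSAD2, where it called 0.170% of all genes tested.

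The stromal photosystem I subunits PSAD and PSAE form the docking site of ferredoxin, and each is encoded by 2 genes. PSAD1 (gene-AT4G02770) measured 38.9, 62.6 and 53.6 FPKM in nid1 replicates 1, 2 and 3, against 22.1, 27.2 and 20.6 FPKM in WT replicates 1, 2 and 3. PSAD2 (gene-AT1G03130; chr1:753307-754262, minus strand, a single exon) was lower in every library, at 12.2, 22.3 and 23.9 FPKM in nid1, against 5.46, 8.56 and 6.80 FPKM in WT. In both genes the 3 nid1 libraries lay above the 3 WT libraries. The log2 fold change was 1.098 for PSAD1 (SE 0.192, limma adjusted p = 0.166) and 1.33 for PSAD2 (SE 0.259, limma adjusted p = 0.212). That of PSAD2 was the 48th highest among all 20533 genes tested and the highest of the 33. Without nid1 replicate 1 PSAD2 was called, with a log2 fold change of 1.62 and a limma adjusted p of 0.0446.

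PSAE1 (gene-AT4G28750) measured 26.4, 46.6 and 40.0 FPKM in nid1, against 15.1, 25.8 and 12.4 FPKM in WT, and PSAE2 (gene-AT2G20260) 53.6, 79.2 and 59.1 FPKM in nid1, against 32.5, 53.2 and 29.6 FPKM in WT. In PSAE1 and in PSAE2 the lowest nid1 value, replicate 1, exceeded the highest WT value, replicate 2, by a small margin only. The log2 fold changes were 1.07 and 0.75 (limma adjusted p = 0.404 and 0.562). PSAE1 shares 263 exonic bases, 32.96% of its own, with AT4G28755, an annotated gene on the other strand that measured 93.4 ± 21.8 FPKM in nid1 and 43.8 ± 20.6 FPKM in WT (SD, n = 3 each). The strand setting of the counting is unknown here, so fragments of the 2 genes may have been divided by estimate and PSAE1 is uncertain.

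PSAG, a membrane subunit at the edge that binds the light-harvesting antenna, had the smallest p-value of the 33 (44th among all genes tested). PSAG (gene-AT1G55670; chr1:20802670-20803449, minus strand, a single exon) measured 9.45, 15.3 and 15.9 FPKM in nid1, against 4.43, 5.76 and 5.05 FPKM in WT. The genotypes were well apart, with nid1 replicate 1 the lowest of the mutant libraries. Its log2 fold change was 1.23 (SE 0.202, limma adjusted p = 0.144), and without nid1 replicate 1 it was 1.46, with a limma adjusted p of 0.0300. The annotated gene AT1G55673 lies wholly within PSAG on the other strand and shares 479 exonic bases, 61.4% of those of PSAG. It measured 40.5 ± 6.86 FPKM in nid1 and 15.7 ± 0.971 FPKM in WT (SD, n = 3 each), more per length than PSAG itself, and was called (log2 fold change 1.302, limma adjusted p = 0.0284). The values of both genes are uncertain for this overlap.

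PSAH, PSAL and PSAO form the side of photosystem I to which mobile antenna docks during state transitions, the shift of antenna between the photosystems. PSAH1 (gene-AT3G16140) measured 35.2, 51.8 and 45.1 FPKM in nid1, against 26.8, 30.4 and 21.3 FPKM in WT, and PSAH2 (gene-AT1G52230) 55.9, 90.8 and 81.6 FPKM in nid1, against 31.0, 47.9 and 27.1 FPKM in WT. PSAO (gene-AT1G08380) measured 66.8, 119.6 and 96.8 FPKM in nid1, against 31.2, 60.6 and 31.9 FPKM in WT. The groups did not overlap in any of the 3, and nid1 replicate 1 was again the nid1 library nearest to WT. PSAH1 had the smallest log2 fold change of photosystem I, 0.72 (limma adjusted p = 0.351), against 1.098 for PSAH2 and 1.205 for PSAO (limma adjusted p = 0.273 and 0.338). PSAL, the highest of the photosystem I genes, averaged 169 ± 37.7 FPKM in nid1 and 78.3 ± 15.0 FPKM in WT (SD, n = 3 each). PSAH1 shares 53.3% of its exonic bases with ROPGEF13, which was listed at 0 in all 6 libraries, and PSAH2 shares 24.8% with ROPGEF11, at 1.71 ± 0.339 FPKM in nid1 and 1.59 ± 0.521 FPKM in WT.

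Among the subunits that dock plastocyanin on the lumenal side, PSAN (gene-AT5G64040) measured 37.0, 64.9 and 52.8 FPKM in nid1, against 18.9, 35.2 and 19.6 FPKM in WT. PSAF, also of the plastocyanin site, averaged 93.9 ± 27.0 FPKM in nid1 and 44.0 ± 5.13 FPKM in WT, and PSAK, which lies by the antenna, 66.8 ± 17.7 FPKM in nid1 and 33.8 ± 9.25 FPKM in WT (SD, n = 3 each). In all 12 photosystem I genes every nid1 value lay above every WT value, as in 5.50% of all genes tested, at ratios of mean FPKM of 1.66 to 2.80 and limma adjusted p-values of 0.144 to 0.562.

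**Figure D2:**
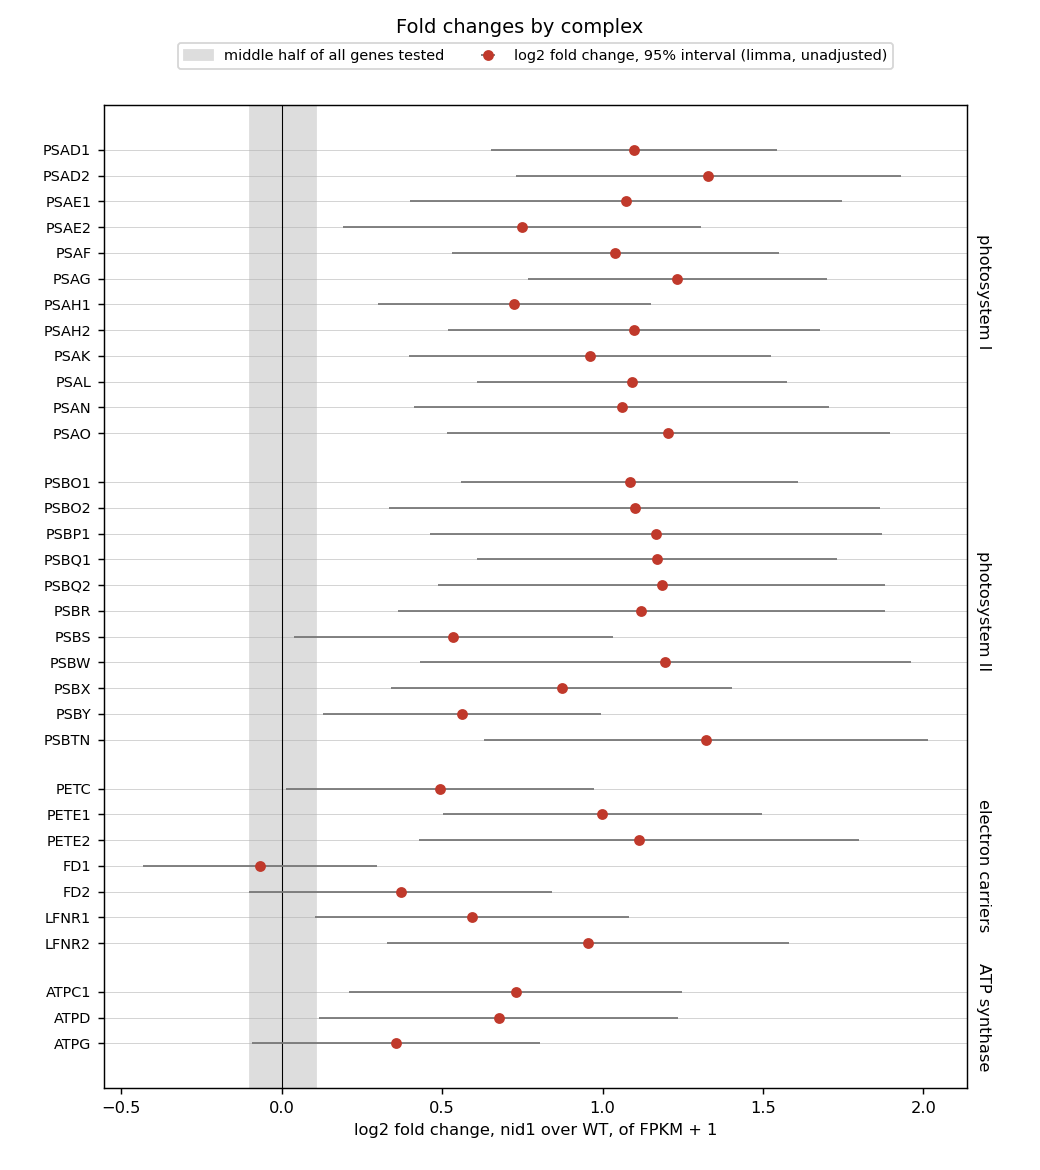
Log2 fold change, nid1 over WT, of FPKM + 1 for each gene, with its 95% interval from limma (unadjusted for the number of genes); the grey band spans the interquartile range of all genes tested, from -0.10 to 0.11. The intervals of 30 genes lie above 0, and those of FD1, FD2 and ATPG include 0.

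In photosystem II the lumenal proteins of the oxygen-evolving complex had fold changes near those of most photosystem I genes. PSBO1 (gene-AT5G66570), the main form of the manganese-stabilising protein, measured 82.9, 144 and 107 FPKM in nid1, against 45.1, 63.9 and 45.0 FPKM in WT. Its other copy PSBO2 (gene-AT3G50820) was the lowest of the 33 genes in WT, at 5.35, 14.7 and 7.83 FPKM in nid1, against 3.20, 4.92 and 2.60 FPKM in WT. PSBP1 (gene-AT1G06680) measured 51.3, 102 and 77.0 FPKM in nid1, against 24.8, 48.0 and 28.6 FPKM in WT. In each of them the lowest nid1 value lay above the highest WT value, for PSBO2 and PSBP1 narrowly. Log2 fold changes were 1.08, 1.1 and 1.17 (limma adjusted p = 0.253, 0.497 and 0.378).

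PSBQ1 (gene-AT4G21280) measured 18.7, 31.4 and 26.6 FPKM in nid1, against 8.12, 14.5 and 9.96 FPKM in WT, and PSBQ2 (gene-AT4G05180) 67.0, 120.1 and 88.5 FPKM in nid1, against 33.2, 60.1 and 29.1 FPKM in WT. PSBR (gene-AT1G79040), which helps to hold the lumenal proteins in place, was the most abundant of all 33 genes, at 289.5, 499 and 337 FPKM in nid1, against 153, 267 and 115 FPKM in WT. WT replicate 2 was the highest WT library in all 3 genes and came within a short distance of nid1 replicate 1 in PSBR and PSBQ2. The log2 fold change was 1.17 for PSBQ1, 1.18 for PSBQ2 and 1.12 for PSBR (limma adjusted p = 0.246, 0.351 and 0.470).

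Of the small subunits, PSBTN (gene-AT3G21055), a short lumenal protein, measured 23.6, 40.3 and 36.7 FPKM in nid1, against 8.16, 18.7 and 12.5 FPKM in WT. PSBW (gene-AT2G30570), which stabilises the supercomplex of photosystem II with its antenna, measured 54.0, 97.4 and 71.3 FPKM in nid1, against 27.0, 51.2 and 21.3 FPKM in WT. The log2 fold change of PSBTN, 1.32 (SE 0.299, limma adjusted p = 0.267), was the largest of photosystem II and that of PSBW, 1.196 (limma adjusted p = 0.421), the next. PSBX averaged 98.3 ± 30.1 FPKM in nid1 and 52.1 ± 8.19 FPKM in WT and PSBY 64.2 ± 14.2 FPKM in nid1 and 42.6 ± 5.10 FPKM in WT (SD, n = 3 each); both are small membrane proteins at the rim of the core. PSBS (gene-AT1G44575), the sensor of lumen acidity that starts the dissipation of excess light as heat, measured 32.6, 51.3 and 40.7 FPKM in nid1, against 23.4, 36.4 and 25.4 FPKM in WT. It was the only photosystem II gene whose genotypes overlapped, nid1 replicate 1 lying below WT replicate 2. PSBS and PSBY had the smallest log2 fold changes of the complex, 0.53 and 0.56 (limma adjusted p = 0.749 and 0.585). PSBP1 and PSBR share at most 2.95% and 6.51% of their exonic bases with neighbours.

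The electron carriers were the most uneven of the 4 groups, with log2 fold changes from -0.07 to 1.11. Plastocyanin, the copper protein that carries electrons to photosystem I, had fold changes near those of the photosystem genes in both of its copies. PETE1 (gene-AT1G76100) measured 8.20, 14.5 and 12.7 FPKM in nid1, against 4.41, 6.36 and 5.17 FPKM in WT, and PETE2 (gene-AT1G20340) 38.6, 70.9 and 62.8 FPKM in nid1, against 19.9, 38.0 and 21.0 FPKM in WT. Neither copy overlapped between genotypes, though for PETE2 nid1 replicate 1 and WT replicate 2 all but met. Log2 fold changes were 1.00 and 1.11 (limma adjusted p = 0.259 and 0.388). PETC (gene-AT4G03280), the Rieske iron-sulfur protein, averaged 76.9 ± 15.6 FPKM in nid1 and 54.5 ± 12.8 FPKM in WT (SD, n = 3 each), with overlapping values and a log2 fold change of 0.49 (limma adjusted p = 0.789).

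The leaf ferredoxins, which take the electrons from photosystem I, differed less than most of the 33 genes. FD1 (gene-AT1G10960) measured 30.8, 40.1 and 34.0 FPKM in nid1, against 30.7, 42.2 and 37.3 FPKM in WT. FD2 (gene-AT1G60950), the major leaf form, measured 43.3, 67.5 and 67.8 FPKM in nid1, against 41.0, 41.0 and 53.8 FPKM in WT. Both genes overlapped between the genotypes, and FD1 was the only one of the 33 with a lower mean in nid1. The 95% interval of the log2 fold change was -0.43 to 0.30 for FD1 and -0.10 to 0.84 for FD2, around estimates of -0.07 and 0.37 (limma adjusted p = 1.00 and 0.955). The upper limit for FD1 lies below the median of 1.06 of the 33 genes. The interval is unadjusted, FD1 is the lowest of the 33, and this difference was not tested. The sign of FD1 turned without nid1 replicate 1 (0.02) and without WT replicate 2 (0.04). FD1 shares 9.1% of its exonic bases with TMN1 on the same strand, which averaged 60.1 ± 3.53 FPKM in nid1 and 59.2 ± 6.24 FPKM in WT.

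FNR is the flavoprotein that passes electrons from ferredoxin to NADP. LFNR1 (gene-AT5G66190) measured 33.2, 50.4 and 39.2 FPKM in nid1, against 22.2, 34.9 and 23.7 FPKM in WT, and LFNR2 (gene-AT1G20020) 15.6, 31.7 and 28.9 FPKM in nid1, against 11.5, 15.5 and 9.91 FPKM in WT. LFNR1 overlapped between the genotypes, since WT replicate 2 lay above nid1 replicate 1, and LFNR2 narrowly did not. Log2 fold changes were 0.59 and 0.95 (limma adjusted p = 0.654 and 0.445). LFNR1 shares 12.7% of its exonic bases with a neighbour on the other strand.

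The 3 nuclear subunits of the ATP synthase are ATPC1, the rotating gamma subunit that is switched by thioredoxin, ATPD, the delta subunit that joins the catalytic head to the stator, and ATPG, the b' subunit of the stator. ATPC1 (gene-AT4G04640) measured 30.0, 58.2 and 42.4 FPKM in nid1, against 22.5, 25.8 and 26.9 FPKM in WT. ATPD (gene-AT4G09650) measured 23.0, 42.3 and 30.3 FPKM in nid1, against 16.6, 24.8 and 16.6 FPKM in WT. ATPG (gene-AT4G32260) measured 81.1, 125 and 85.3 FPKM in nid1, against 71.4, 86.5 and 66.4 FPKM in WT. Only ATPC1 was free of overlap; in ATPD and ATPG nid1 replicate 1 lay below WT replicate 2, and in ATPG nid1 replicate 3 did as well. Log2 fold changes were 0.73, 0.68 and 0.36 (limma adjusted p = 0.513, 0.655 and 0.952), and the 95% interval of ATPG was -0.09 to 0.81.

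Of the 33 genes, 16 form 8 pairs that encode the same subunit or carrier, and the balance within a pair can be compared between genotypes. The longest run of identical bases between the transcripts of 2 copies was 17 to 35 bp, shorter than the 101 bp reads. The value compared is the log2 ratio of FPKM + 1 of the copy named first over the other. The genotypes were compared by a two-sided exact permutation test, in which 3 libraries against 3 cannot give a p below 0.1, so no pair could pass 0.05.

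Which copy was the higher was the same in all 6 libraries for every pair except FD1/FD2. PSBO1 exceeded PSBO2 most, with a log2 ratio of 3.51 ± 0.275 in nid1 and 3.53 ± 0.126 in WT (SD, n = 3 each; exact permutation p = 1). PSBQ1/PSBQ2 stood at -1.80 ± 0.104 in nid1 and -1.78 ± 0.282 in WT (exact permutation p = 1), and PETE1/PETE2 at -2.18 ± 0.0620 in nid1 and -2.07 ± 0.301 in WT (exact permutation p = 0.6). The balance of these 3 pairs differed between genotypes by less than the SD of the WT replicates. For PETE1/PETE2 the difference was larger than the SD of the nid1 replicates.

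In the PSAE and PSAH pairs the ratios did not overlap. PSAE1/PSAE2 measured -0.99, -0.75 and -0.55 in nid1, against -1.06, -1.02 and -1.19 in WT, a difference of 0.32. PSAH1/PSAH2 measured -0.65, -0.80 and -0.84 in nid1, against -0.20, -0.64 and -0.33 in WT, a difference of -0.37. Relative to its partner, PSAE1 was thus higher and PSAH1 lower in nid1, each at the smallest p the design allows (exact permutation p = 0.1, adjusted p = 0.4 over the 8 pairs). Both copies of the PSAE and PSAH pairs share exonic bases with another gene. PSAE2 shares 10.4% of its own with AT2G20270 on the other strand, which averaged 43.9 ± 2.85 FPKM in nid1 and 42.9 ± 10.6 FPKM in WT (SD, n = 3 each). For FD1/FD2 the ratios were -0.48, -0.74 and -0.97 in nid1, against -0.40, 0.04 and -0.52 in WT (exact permutation p = 0.2, adjusted p = 0.4 over the 8 pairs). LFNR1/LFNR2 measured 1.04, 0.65 and 0.43 in nid1, against 0.90, 1.13 and 1.18 in WT (exact permutation p = 0.2, adjusted p = 0.4 over the 8 pairs). PSAD1/PSAD2 measured 1.59, 1.45 and 1.13 in nid1, against 1.84, 1.56 and 1.47 in WT (exact permutation p = 0.4, adjusted p = 0.64 over the 8 pairs). In these 3 pairs the genotypes overlapped.

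**Figure D3:**
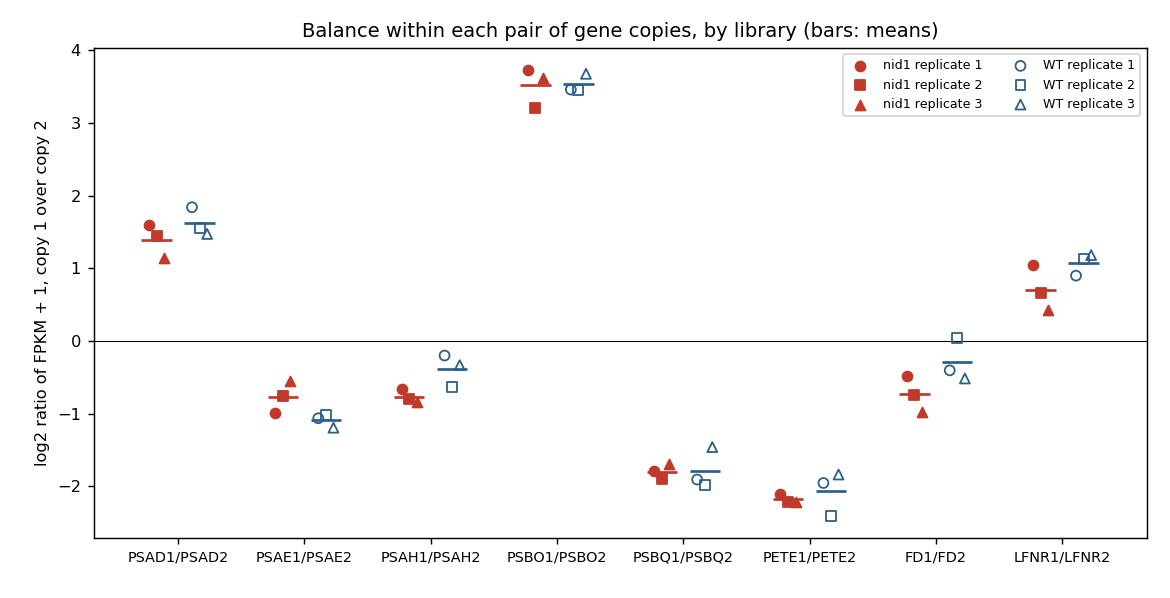
Log2 ratio of FPKM + 1 between the copies of each pair in each library, nid1 on the left (filled) and WT on the right (open) of every pair, with bars for the means. The means of PSBO1/PSBO2, 3.51 in nid1 and 3.53 in WT, nearly coincide, and those of FD1/FD2, -0.73 in nid1 and -0.29 in WT, lie farthest apart.

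The 250 bases before each gene's annotated start were read from the TAIR10.1 genome of RefSeq and searched on both strands for 4 short motifs, which can overlap one another. The G-box CACGTG is bound by bZIP and bHLH factors of light signalling, and the I-box core GATAAG is a GATA motif known from promoters of light-regulated plant genes. The G-box was found in 6 of 33 windows (18.2%), against 6.49% of the windows of all 27443 protein-coding genes. The I-box core was found in 9 of 33 (27.3%), against 12.3%. The TATA box TATAAA was found in 16 of 33 (48.5%), against 47.3%, and the evening element AAATATCT in 1 of 33 (3.03%), against 4.79%. Among the protein-coding genes tested, 7.13% held a G-box and 12.1% an I-box core. The G-box and I-box shares were 23.8% and 19% in light-harvesting antenna genes (n = 21) and 15% and 20% in Calvin cycle genes (n = 20). In genes for photosystem assembly and repair (n = 19) they were 5.26% and 10.5%. Genes with a G-box had a median log2 fold change of 1.13 (n = 6, 0.68 to 1.32), and those without 1.04 (n = 27, -0.07 to 1.33). For the I-box core the medians were 1.04 with it (n = 9) and 1.07 without (n = 24). The differences between these shares were not tested. A match is a description of these letters only, and the fold changes of genes with and without each motif overlapped.

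The windows of 3 pairs are printed 5′ to 3′ with G-box and I-box core matches in capitals: PSAH, a pair whose balance did not overlap between genotypes, PSBQ, a pair whose balance was alike, and FD, the pair with the smallest fold changes. PSAH2 at chr1:19454548-19454797 (plus strand) holds 2 G-boxes and 1 I-box core, and PSAH1 at chr3:5469595-5469844 (minus strand) holds neither motif. PSBQ1 at chr4:11334102-11334351 (plus strand) holds 2 G-boxes, and PSBQ2 at chr4:2673244-2673493 (minus strand) 2 G-boxes and 1 I-box core. FD1 at chr1:3663937-3664186 (plus strand) and FD2 at chr1:22444057-22444306 (plus strand) hold neither. Pairs not printed went both ways. PSAE, also without overlap in its balance, had a G-box in PSAE2 (log2 fold change 0.75) and neither motif in PSAE1 (1.07). An I-box core lay in PSAD1 (1.098) and LFNR1 (0.59), whose partners PSAD2 (1.33) and LFNR2 (0.95) held neither motif. PETE2 (1.11) held an I-box core and PETE1 (1.00) neither motif, and the PSBO copies held neither.
PSAH1: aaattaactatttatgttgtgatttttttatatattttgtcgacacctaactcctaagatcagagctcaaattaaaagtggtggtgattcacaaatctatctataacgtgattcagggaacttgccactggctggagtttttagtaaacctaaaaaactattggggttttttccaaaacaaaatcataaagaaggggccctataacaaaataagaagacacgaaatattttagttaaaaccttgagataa
PSAH2: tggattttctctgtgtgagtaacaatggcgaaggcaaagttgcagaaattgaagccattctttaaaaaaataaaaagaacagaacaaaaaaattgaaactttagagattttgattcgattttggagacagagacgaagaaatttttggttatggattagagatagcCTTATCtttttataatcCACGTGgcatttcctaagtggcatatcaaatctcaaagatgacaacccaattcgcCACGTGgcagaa
PSBQ1: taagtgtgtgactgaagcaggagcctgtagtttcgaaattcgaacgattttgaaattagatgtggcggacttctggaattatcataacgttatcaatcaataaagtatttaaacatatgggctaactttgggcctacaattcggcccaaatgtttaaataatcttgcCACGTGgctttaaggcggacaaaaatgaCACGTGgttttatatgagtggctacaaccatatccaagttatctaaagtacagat
PSBQ2: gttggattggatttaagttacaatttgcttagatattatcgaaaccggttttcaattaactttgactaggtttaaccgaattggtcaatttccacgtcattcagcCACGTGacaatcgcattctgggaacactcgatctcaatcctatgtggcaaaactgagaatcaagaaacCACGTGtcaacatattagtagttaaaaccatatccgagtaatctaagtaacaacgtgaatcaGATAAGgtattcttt
FD1: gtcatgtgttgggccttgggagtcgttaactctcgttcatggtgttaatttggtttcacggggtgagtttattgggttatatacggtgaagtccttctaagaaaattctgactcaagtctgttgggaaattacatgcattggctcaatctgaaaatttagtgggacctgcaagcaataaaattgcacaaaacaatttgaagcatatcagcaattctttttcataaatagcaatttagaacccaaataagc
FD2: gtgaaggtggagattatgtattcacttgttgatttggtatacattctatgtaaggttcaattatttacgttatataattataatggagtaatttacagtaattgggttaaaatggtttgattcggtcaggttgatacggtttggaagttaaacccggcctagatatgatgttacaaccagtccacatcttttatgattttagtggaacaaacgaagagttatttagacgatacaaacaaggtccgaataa

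The 33 genes lie on all 5 chromosomes, with 15 on chromosome 1 and 9 on chromosome 4. The 12 genes of 1 exon had a median log2 fold change of 0.94 and the 21 genes of several exons 1.07. Across the 33 genes, which share their libraries, Spearman's rho between the WT level, log2(FPKM + 1), and the log2 fold change was -0.333. The WT values enter both quantities, with opposite sign, so their spread alone can make rho negative. Exonic bases are shared with another gene by 11 of the 33, and 4 share over 20%. The other 22 had a median log2 fold change of 1.02, and in 17 of them every nid1 value lay above every WT value, as in 5.50% of all genes tested.

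The neighbouring parts of the photosynthetic apparatus give the context. In the light-harvesting antenna (LHCA and LHCB genes) 19 of 20 tested genes had a positive log2 fold change, nid1 over WT, with a median log2 fold change of 1.18, and in the Calvin cycle 19 of 20, with a median of 0.62. Cyclic electron flow and the NDH complex, which returns electrons from ferredoxin to plastoquinone, had 11 of 12 tested genes above 0 and a median of 0.36. Factors for assembly and repair of the photosystems had 16 of 19 above 0 and a median of 0.15. Of all genes tested, 50% were above 0. The limma test called 0 genes of each of these lists, against 0.0877% of all genes tested. At an unadjusted p under 0.05 there were 17, 12, 5 and 2, all higher in nid1, against 3.65% of all genes tested. Differences between lists were not tested. The assembly and repair genes with the smallest p were PSB27, a lumenal factor of photosystem II assembly, at 6.58, 10.1 and 8.72 FPKM in nid1, against 3.60, 5.80 and 3.24 FPKM in WT, and TLP18.3, which acts in photosystem II repair, at 10.1, 24.0 and 19.1 FPKM in nid1, against 8.92, 9.40 and 8.73 FPKM in WT (limma adjusted p = 0.345 and 0.584). In both genes every nid1 value lay above every WT value, as in 3 of the 19 genes of their list and in 5.50% of all genes tested. NDHL, a membrane subunit of the NDH complex, measured 2.00, 3.29 and 3.78 FPKM in nid1, against 1.00, 0.502 and 1.18 FPKM in WT (limma adjusted p = 0.242), a low gene in every library whose genotypes did not overlap either. It had the smallest p of its list, in which every nid1 value lay above every WT value for 3 of the 12 tested genes.

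**Figure D4:**
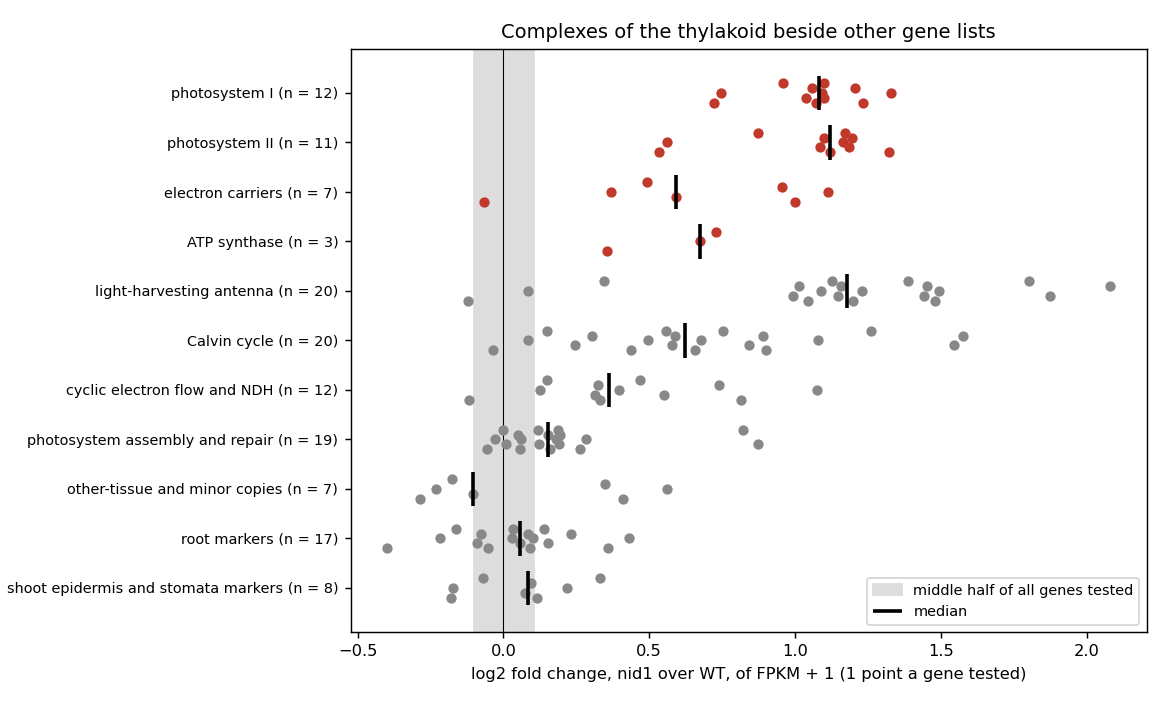
Log2 fold change, nid1 over WT, of FPKM + 1 for each gene tested in the 4 complexes (red) and in other gene lists (grey), with black bars for the medians and a grey band for the interquartile range of all genes tested. The medians of photosystem I (1.08), photosystem II (1.12) and the antenna (1.18) lie to the right of those of assembly and repair (0.15), root markers (0.06) and shoot epidermis markers (0.08).

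The chloroplast-encoded subunits of the same complexes, whose transcripts mostly lack poly(A) tails and are poorly sampled by a poly(A) library, mostly stayed below the level tested or at 0. Among 32 such genes, 17 had a listed 0 in 1 or more libraries and 8 in all 6, and a listed 0 may be a failed estimate. PSBM, chosen after its values were seen, was listed at 0 in all 3 nid1 libraries, against 209.7 FPKM in WT replicate 2 and 0 in the other WT libraries. The level tested was reached by 7 genes, 0 were called by limma and 0 had an unadjusted p under 0.05. PSBA, for the D1 protein of photosystem II, was listed at 332, 31.0 and 9.20 FPKM in nid1, against 7.03, 6.63 and 35.6 FPKM in WT, and its genotypes overlapped.

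Several of the carriers have forms used in roots and other non-green tissue, which were read in the same libraries. FD3, the main ferredoxin of non-green plastids, measured 319, 292 and 311 FPKM in nid1, against 379, 361 and 384 FPKM in WT. It exceeded FD2, on average the higher leaf form, by factors of 4.33 to 7.38 in nid1 libraries and 7.13 to 9.24 in WT libraries, on the FPKM scale. The root reductase RFNR2 measured 83.7, 77.9 and 82.2 FPKM in nid1, against 95.6, 92.3 and 99.1 FPKM in WT, and RFNR1 34.5, 34.0 and 33.01 FPKM in nid1, against 35.3, 33.01 and 41.6 FPKM in WT. FD3 and RFNR2 were lower in every nid1 library than in every WT library, as were 4.79% of all genes tested, without passing the test (log2 fold changes -0.29 and -0.23, limma adjusted p = 0.867 and 0.875), and RFNR1 overlapped (limma adjusted p = 1.00). FD3 was more abundant than FD1 and FD2 in all 6 libraries. In the list of other-tissue and minor copies, which holds these root forms, 3 of 7 tested genes had a log2 fold change above 0 and 4 below. An unadjusted limma p under 0.05 was found for 2 of them, FDC1 and ATC6, both higher in nid1, against 3.65% of all genes tested. Their log2 fold changes were 0.56 and 0.41 (limma adjusted p = 0.625 and 0.789).

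**Figure D5:**
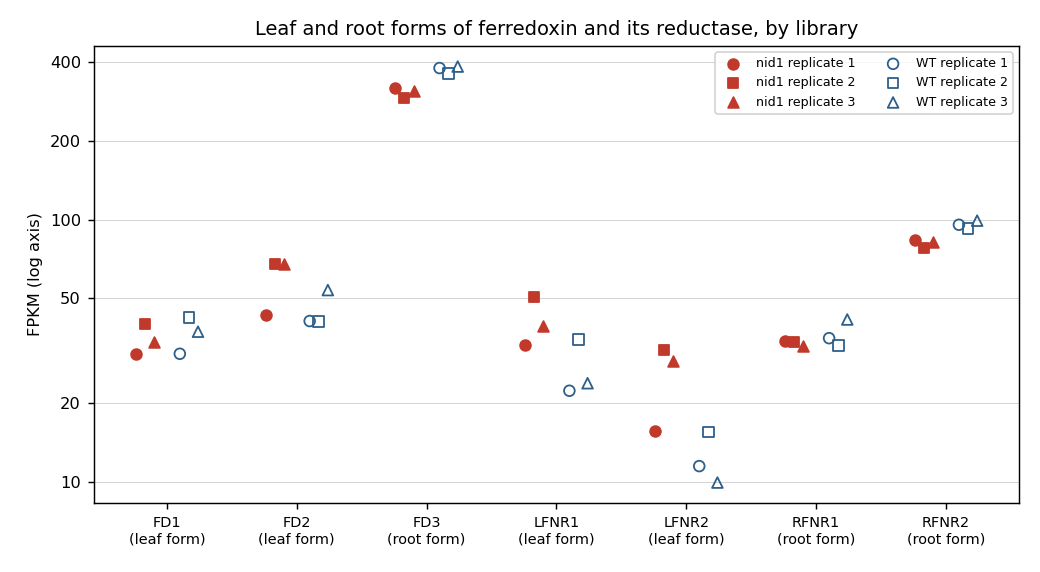
FPKM of leaf and root forms of ferredoxin (FD) and ferredoxin-NADP reductase (LFNR, RFNR) on a log axis, nid1 libraries on the left (filled) and WT libraries on the right (open) of each gene. FD3 lies above 290 in all 6 libraries, FD1 and FD2 at or below 67.8.

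Markers of both organs were read beside the whole-plant label. None of 18 root markers (endodermis, root hair, root cap and others) and none of 11 markers of shoot epidermis and stomata was at 0 in any library. Traces are enough for that, such as 0.29 to 0.57 FPKM for the root marker WOX5 and 0.23 to 0.45 FPKM for the shoot marker BASL. The proportion of the organs is therefore not shown. The root marker PYK10 alone averaged 2848 FPKM in nid1 and 3761 FPKM in WT, against 2264 and 1189 FPKM for the 33 genes summed. Root markers summed to 3338 to 3487 FPKM in nid1 and 3900 to 4617 FPKM in WT, and without the abundant glucosidase PYK10 to 580.3 to 586.9 FPKM in nid1 and 470.9 to 623.9 FPKM in WT. Shoot epidermis and stomata markers summed to 27.7 to 31.2 FPKM in nid1 and 24.1 to 30.1 FPKM in WT. The root sum was lower in every nid1 library, while without PYK10 it overlapped between the genotypes, as did the shoot sum. Limma called 0 root markers and 0 shoot epidermis markers, and at an unadjusted p under 0.05 there were 0 and 1, TMM, a receptor-like protein of the stomatal lineage (log2 fold change 0.33, limma adjusted p = 0.636). The part of organ proportions in the fold changes of the 33 genes was not tested.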

How the data were processed

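Poly(A) RNA of nid1 and WT seedlings (3 libraries each) was sequenced as stranded pairs of 101 bp, per the labels' protocols. The authors deposited 1 FPKM value per gene and library, and the identifier column carries a Cuffdiff name, per the file headers. The submitters' processing notes list bcl2fastq 2.20, Bowtie, TopHat2 2.0.13 and Cuffdiff 2.2.1 without saying what each did. The strand setting, genome build and library scaling were not given in those notes. Since 37932 of 38150 identifiers equal RefSeq TAIR10.1 locus tags, and the other 218 equal positions of mitochondrial features annotated there, that build was used, with 1-based coordinates. Depth is unknown, so no counting interval is given. FPKM sums per library were 740626 to 804310 in nid1 and 730062 to 964273 in WT.

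Genes reaching 1 FPKM in 3 or more of the 6 libraries were tested (20533 genes, all 33 described here included, each at 1 FPKM or more in all 6). The test was limma 3.58.1 (R 4.3.3; lmFit and eBayes, mean-variance trend) on log2(FPKM + 1), two-sided, by genotype alone, with Benjamini-Hochberg adjustment over the genes tested and a call at an adjusted p under 0.05. The fit was tested on simulated data. Values per library are given for copy pairs, for the 3 largest and the smallest fold changes of each complex, for genes called with any 1 library left out and for genes sharing exonic bases with another gene. Of the other lists up to 2 genes by smallest p are named, and FD3, RFNR1 and RFNR2 whatever their result. Genes overlapping the 33 are named for that overlap. The 33 genes and the lists were chosen with earlier results of these data known. Alternatives tried were a replicate block, each library left out, pseudocounts of 0.1 and 0.5, a filter at 0.1 FPKM or none, rescaling by median ratios or to equal sums, and no variance trend.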

Additional observations from a re-analysis of the deposited data

How the results depend on the processing

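The median log2 fold change of the 33 genes was 0.855 to 1.277 with 1 library left out and 1.055 to 1.122 in the other settings. Genes with an unadjusted p under 0.05 numbered 24 to 31 of the 33 with 1 library left out, where 3.53% to 13.3% of all genes tested had one, and 28 to 32 otherwise, where 6.15% to 8.09% had one. Leaving out 1 library gave 0 to 2 limma calls among the 33 and 8 to 35 among all genes. With a replicate block limma called 11 of the 33 (PSAD1, PSAD2, PSAG, PSAK, PSAN, PSAO, PSBO1, PSBP1, PSBQ1, PSBQ2 and PSBTN) and 70 genes in all, 0.341% of those tested. The replicate numbers are not shown to pair the samples. Deviations of same-numbered libraries from their group means correlated at -0.0101, 0.129 and 0.297 across genes for replicates 1, 2 and 3. The nid1 replicates 2 and 3 correlated best with the WT library of their own number. In contrast, nid1 replicate 1 correlated best with WT replicate 2 (0.218).

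Signs turned for differences near 0, and the cause was not tested. With 1 library left out, the log2 fold change of FD1 was -0.1871 to 0.03576. The differences between genotypes in log2 ratio were then -0.1213 to 0.14 for PSBO1/PSBO2, -0.1133 to 0.1478 for PSBQ1/PSBQ2 and -0.2833 to 0.001153 for PETE1/PETE2. That of PSBQ1/PSBQ2 was 0.03469 at a pseudocount of 0.1 and 0.01226 at 0.5. Depth is unknown, so the counting error of low genes such as PSBO2 and PETE1 could not be given.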
